A study of Mus musculus with 2 samples.

Results

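The immediate-early and activator protein 1 (AP-1) genes Fos, Fosb, Jun, Junb, Jund, Egr1, Atf3, Ier2, Nr4a1 and Nr4a2 were followed across single cells of mouse small intestinal organoids. The genes were taken by name, with no threshold on their values. All 10 were measured in both plates, of 16943 nuclear genes in all. Cells were sorted as Ngn3-RFP-positive from organoids of jejunum and ileum with the genotype Neurog3-RFP hom, in which a red fluorescent protein reports Neurog3, a transcription factor needed for enteroendocrine cells to form. The first group received ISX-9 (isoxazole 9, a small molecule known as an inducer of neuronal differentiation) for 48 h, and the second the solvent DMSO for 48 h. The organoids, the reporter genotype and the sort were common to both, so cells without the reporter were not analysed here, and the dose and the number of mice or cultures are not stated in the labels. Each treatment had 1 plate of 384 wells, read by SORT-seq, a plate method that sorts 1 cell into each well and counts reads near the 3′ ends of transcripts. With 1 library on each side, the treatments were not tested against each other, no p-value is given, and plate and treatment cannot be told apart.

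Immediate-early genes are transcribed within minutes of a growth factor, calcium or stress signal, without the need for new protein, and their transcripts are short-lived. Fos and Jun proteins pair through leucine zippers to form AP-1, which binds DNA at enhancers and promoters. In intestinal epithelium these genes are known from responses to growth factors and injury, and they are also known to be switched on while tissue is dissociated into single cells. When the cells in these plates were dissociated, and for how long, is not stated in the labels, and its part in the values was not tested.

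A well was kept when it had 2000 or more nuclear reads over 500 or more genes, as did 290 of 384 wells in the ISX-9 plate and 300 of 384 in the DMSO plate. Levels are nuclear reads of a gene scaled to the same total for both plates (CPM), with spike-ins and mitochondrial genes outside the total. The kept wells held 11801859 nuclear reads in the ISX-9 plate and 14754827 in the DMSO plate, with a median per well of 22509.5 and 26340. Reads of 1 amplified molecule count more than once, so reads are not independent. The Poisson intervals cover the counting error of reads only, and are too narrow for molecules and for the spread over wells. The labelled identity was checked: Neurog3 was read in 72.8% of the ISX-9 wells and 49% of the DMSO wells, and the epithelial marker Epcam in 89.7% and 86%. Of the immune markers, Cd3e had no read in either plate, Ptprc had 0 reads in the ISX-9 plate and 1 read in the DMSO plate, Lyz2 had 1 and 0 reads, and Cd68 had 37 reads in 18 ISX-9 wells and 26 reads in 7 DMSO wells. Of the mesenchymal markers, Vim was read in 29.3% of the ISX-9 wells and 22.7% of the DMSO wells, while Col1a1, Col1a2 and Pdgfra were each read in at most 5 wells of a plate. Rn45s, a ribosomal RNA precursor, took 6.10% of nuclear reads in the ISX-9 plate and 12.6% in the DMSO plate, and its part in the levels was tested only by leaving it out of the totals.

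Most of these genes were at similar levels in the plates, and the 2 orphan nuclear receptors among them differed in opposite directions. Together the 10 genes took 0.146% of nuclear reads in the ISX-9 plate and 0.160% in the DMSO plate. Differences are log2 ratios of (CPM + 5) with ISX-9 over DMSO. Their median over the 10 genes was −0.16, with 3 ratios above 0 and 7 below. All 10 genes had a mean over both plates of 10 CPM or more, as had 9106 genes in all, whose median was 0.15. Only Nr4a2 was at least 2-fold apart, and it was lower in ISX-9 wells. Over all genes that passed, 5.7% were at least 2-fold apart in either direction and 1.19% were at least 2-fold lower, so 1 of 10 is close to the background.

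**Figure D1:**
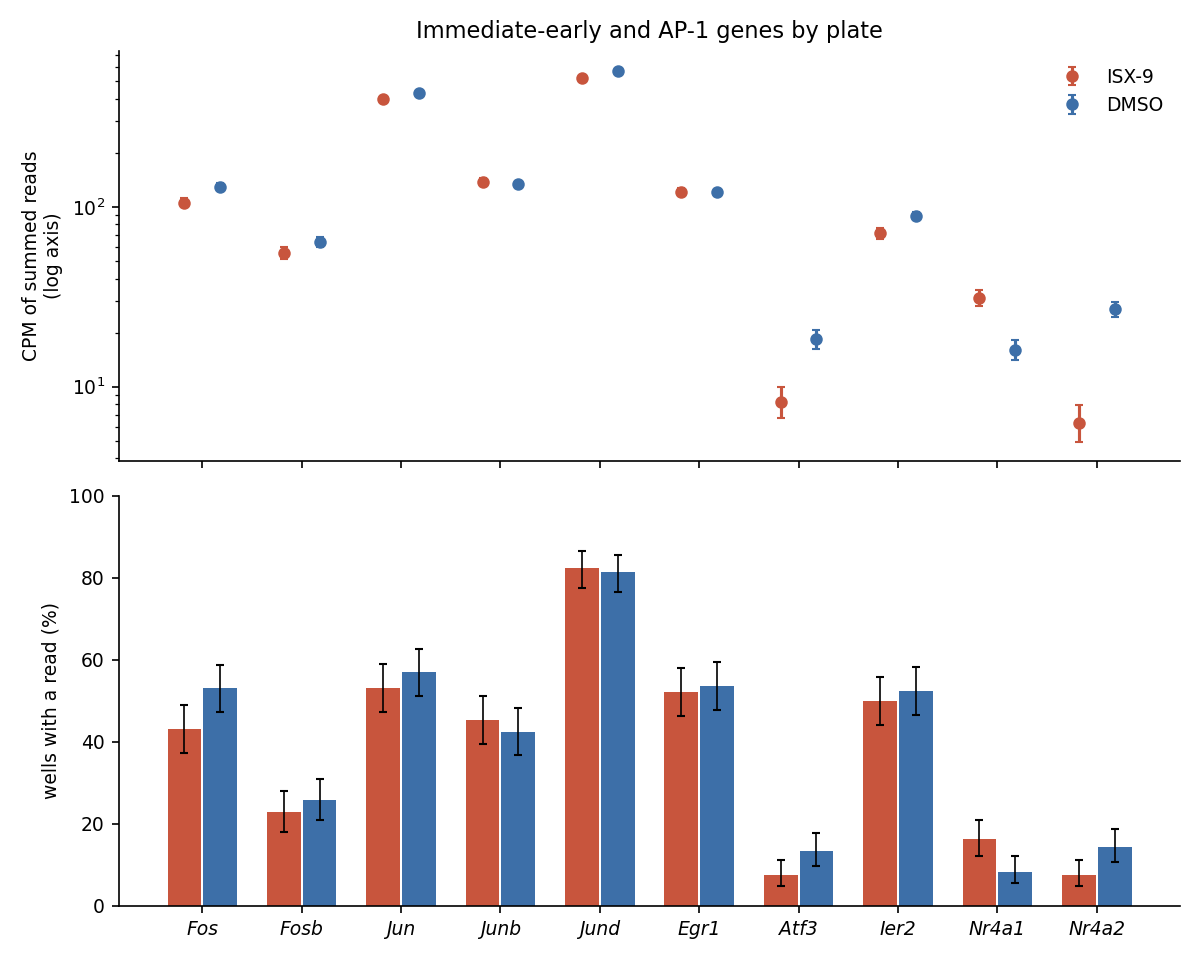
Level of each of the 10 genes per plate in CPM on a log axis, with exact 95% Poisson intervals, and the share of wells with a read in percent, for 290 ISX-9 wells and 300 DMSO wells. The ISX-9 and DMSO values lie close together for most genes, and are farthest apart for Nr4a2, at 6.27 and 27.0 CPM.

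Among the Fos proteins, which cannot pair with themselves and need a Jun partner, Fos was at 105.5 CPM (95% Poisson interval 99.7 to 111.5) in ISX-9 wells and 129.7 CPM (123.9 to 135.6) in DMSO wells. Fos was read in 43.1% of the ISX-9 wells and 53% of the DMSO wells. Per well, Fos was 0 at the lowest in both plates, had a median of 0 and 18.2 CPM, and reached 3494 CPM in an ISX-9 well and 5793 CPM in a DMSO well. The distributions overlapped over nearly their whole range, and the log2 ratio was −0.29. Fosb, its relative that is also known for a truncated splice form, was at 55.6 CPM in ISX-9 wells and 64.2 CPM in DMSO wells, with reads in 22.8% and 25.7% of wells and a log2 ratio of −0.19. Fosb was therefore at 0 in most wells of both plates.

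The Jun proteins pair with Fos proteins and with each other. Jun, the classical activating member, was at 400.4 CPM in ISX-9 wells and 432.8 CPM in DMSO wells, with reads in 53.1% and 57% of wells. Its wells ran from 0 through medians of 33.5 and 42.7 CPM to 7657 CPM in the ISX-9 plate and 9649 CPM in the DMSO plate, so the plates overlapped. Junb, a member induced quickly by cytokines and growth factors, was at 137.5 CPM in ISX-9 wells and 134.1 CPM in DMSO wells, a log2 ratio of 0.03 that was negative with median-of-ratios scaling, spike-in scaling or Rn45s outside the totals, in thinned wells and as a mean of the wells' CPM. Jund, the member known for steady rather than induced expression, was at 524.4 CPM in ISX-9 wells and 570.7 CPM in DMSO wells, and was read in 82.4% and 81.3% of wells. Its log2 ratio was −0.12, and 0.04 as a mean of the wells' CPM. Its well median, at 398.6 CPM in the ISX-9 plate and 389.8 CPM in the DMSO plate, was the highest of the 10 genes. Fosb lies on chromosome 7, Fos on 12, Jun on 4, and Junb and Jund both on 8, per the row names. Jun and Jund together made up 63.3% of the reads of the 10 genes in ISX-9 wells and 62.6% in DMSO wells.

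Egr1, a zinc finger factor induced through serum response factor, was at 121.0 CPM in ISX-9 wells and 120.8 CPM in DMSO wells, with reads in 52.1% and 53.7% of wells. Its log2 ratio was 0.00, −0.24 with spike-in scaling, −0.16 with median-of-ratios scaling and 0.52 as a mean of the wells' CPM, so no direction held. Ier2, a small nuclear protein induced early after growth signals, was at 71.3 CPM in ISX-9 wells and 88.9 CPM in DMSO wells, with reads in 50% and 52.3% of wells. Its log2 ratio was −0.30, and it was 0.22 as a mean of the wells' CPM and 0.05 in thinned wells. Atf3, a stress-induced factor of the ATF family, was at 8.22 CPM (6.67 to 10.03) in ISX-9 wells and 18.4 CPM (16.2 to 20.7) in DMSO wells, from 97 and 271 reads. Atf3 was read in 22 of 290 wells with ISX-9 and 40 of 300 wells with DMSO, and 1 well held 10.3% and 16.6% of the reads. The Atf3 log2 ratio was −0.82. It passed 2-fold under 3 other processings, at −1.45 in thinned wells, −1.07 with a pseudocount of 1 and −1.001 with spike-in scaling. In thinned wells Atf3 was read in only 1 ISX-9 well and 7 DMSO wells, so that value rests on few reads.

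Nr4a1 (Nur77) and Nr4a2 (Nurr1) are nuclear receptors without a known required ligand, whose activity is set mainly by how much of them is made. Nr4a1 was at 31.1 CPM (28.0 to 34.4) in ISX-9 wells and 16.1 CPM (14.1 to 18.2) in DMSO wells, with reads in 47 of 290 wells and 25 of 300 wells. Its log2 ratio was 0.78. The size rested on how wells were weighted: it was 0.15 as a mean of the wells' CPM and 0.10 in wells thinned to 2000 reads, where Nr4a1 was read in 5.52% of the ISX-9 wells and 4% of the DMSO wells. In the DMSO plate 3 wells held 59.1% of the Nr4a1 reads, and in the ISX-9 plate the top 3 held 25.3%. Nr4a2 was at 6.27 CPM (4.92 to 7.87) in ISX-9 wells and 27.0 CPM (24.4 to 29.8) in DMSO wells, with reads in 22 of 290 wells and 43 of 300 wells. Its log2 ratio was −1.50, and it stayed between −2.31 and −1.18 over 11 other processings. In thinned wells Nr4a2 was read in 0.690% of ISX-9 wells (0.0836 to 2.47, exact Clopper-Pearson 95% interval) and 5% of DMSO wells (2.83 to 8.11).

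Other immediate-early genes were read as a list of related factors and feedback inhibitors. Of 36 names 32 were measured, and 25 had a mean of 10 CPM or more. Their median log2 ratio was 0.23, with 16 above 0 and 9 below. Gadd45a, a growth arrest and DNA damage gene, was the 1 gene at least 2-fold apart, at 800.5 CPM in ISX-9 wells and 247.9 CPM in DMSO wells. The share of genes at least 2-fold higher in the background was 4.51%. Of 11 heat shock chaperones, which respond to protein damage, 2 were at least 2-fold higher in ISX-9 wells. The 3 with the highest mean were close between plates: Hsp90ab1 at 2931 CPM in ISX-9 wells and 2616 CPM in DMSO wells, Hspa8 at 1339 and 1166 CPM, and Hsp90aa1 at 531.3 and 552.0 CPM. The 2 that were higher were Hspb1, at 77.0 CPM in ISX-9 wells and 0.746 CPM in DMSO wells, and Hspa1b, at 126.3 and 59.2 CPM.

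Within a plate, the genes were unevenly spread over wells. A median of 4 of the 10 genes had a read per well in either plate, with a mean of 3.80 ± 2.34 genes in ISX-9 wells and 4.01 ± 2.36 genes in DMSO wells (SD over wells, which are not replicates). No member was read in 10 ISX-9 wells (3.45%) and 14 DMSO wells (4.67%). At least 6 were read in 70 ISX-9 wells, 24.1% (19.3 to 29.5), and 88 DMSO wells, 29.3% (24.2 to 34.8). The summed level of the 10 genes per well had a median of 1207 CPM in ISX-9 wells and 1325 CPM in DMSO wells, and the highest wells reached 14713.5 CPM and 17628.5 CPM. The 29 ISX-9 wells and 30 DMSO wells highest in this level held 36.7% and 35.9% of the well levels summed over their plate.

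**Figure D2:**
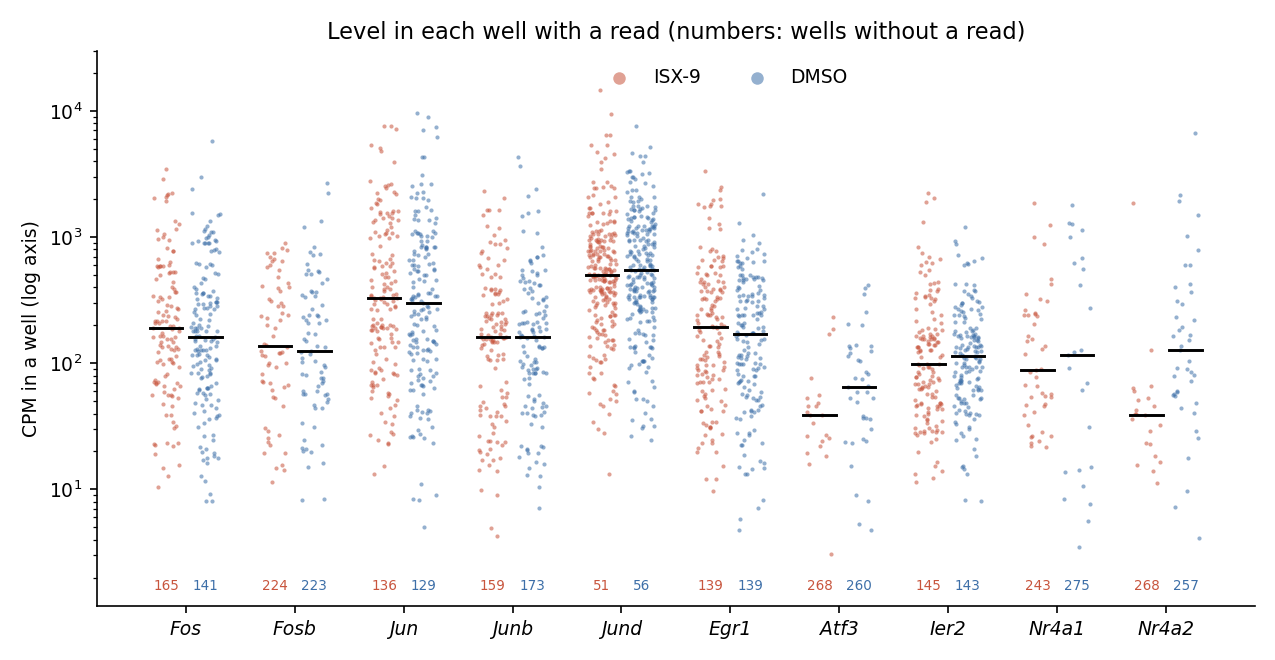
Level of each of the 10 genes in CPM on a log axis in each well with a read, of 290 ISX-9 wells and 300 DMSO wells. Lines mark the median of wells with a read, and numbers give the wells without a read. The plates overlap for each gene, and Jund has the highest median of wells with a read, at 498.9 CPM in ISX-9 wells and 544.8 CPM in DMSO wells.

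How many of the genes were read moved with depth. The number with a read rose with the nuclear reads of a well, at a Spearman rho of 0.62 across 290 ISX-9 wells and 0.66 across 300 DMSO wells. Its median was 2, 4 and 5.5 genes in the shallowest, middle and deepest ISX-9 wells and 2, 4 and 6 genes in those of the DMSO plate, when each plate was split into 3 groups of equal size by depth. After thinning each well to 2000 reads, the rho was 0.005 in ISX-9 wells and 0.17 in DMSO wells. The summed level ran the other way or not at all with depth, at a rho of −0.15 in ISX-9 wells and 0.02 in DMSO wells. Jund was lower in pooled CPM over the same 3 groups of wells, with 1012, 602.6 and 473.7 CPM in the ISX-9 plate and 853.9, 739.2 and 513.4 CPM in the DMSO plate. Its rho with depth across wells was positive, at 0.06 in ISX-9 wells and 0.16 in DMSO wells, and after thinning it was read in 49.5%, 50.5% and 56.2% of the ISX-9 groups and 42%, 57% and 65% of the DMSO groups. The correlations below are therefore partial Spearman correlations given the nuclear reads of the well, and are descriptions across wells that share 1 library.

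In all, 7 of the genes were read in 20% or more of the wells of each plate, which gives 21 pairs. Their median partial rho was 0.23 in ISX-9 wells and 0.21 in DMSO wells. Over all pairs of genes read in a like share of wells, 5842 genes in the ISX-9 plate and 4644 in the DMSO plate, the median was 0.009 and 0.030, and the 99th percentile was 0.179 and 0.192. Several pairs of Fos, Fosb, Jun, Egr1 and Ier2 were highest. Fos and Fosb had a partial rho of 0.38 in ISX-9 wells and 0.37 in DMSO wells, Fos and Egr1 0.28 and 0.44, and Fos and Jun 0.36 and 0.29. Fosb and Egr1 were at 0.36 and 0.27, Jun and Egr1 at 0.35 and 0.19, and Egr1 and Ier2 at 0.29 in both plates. These values are above the 99th percentile of all pairs, apart from Jun and Egr1 in the DMSO plate, and remain modest. Junb was also positive with Fos, Fosb, Jun, Egr1 and Ier2. Its values lay between 0.12 and 0.25 in ISX-9 wells and between 0.18 and 0.25 in DMSO wells.

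**Figure D3:**
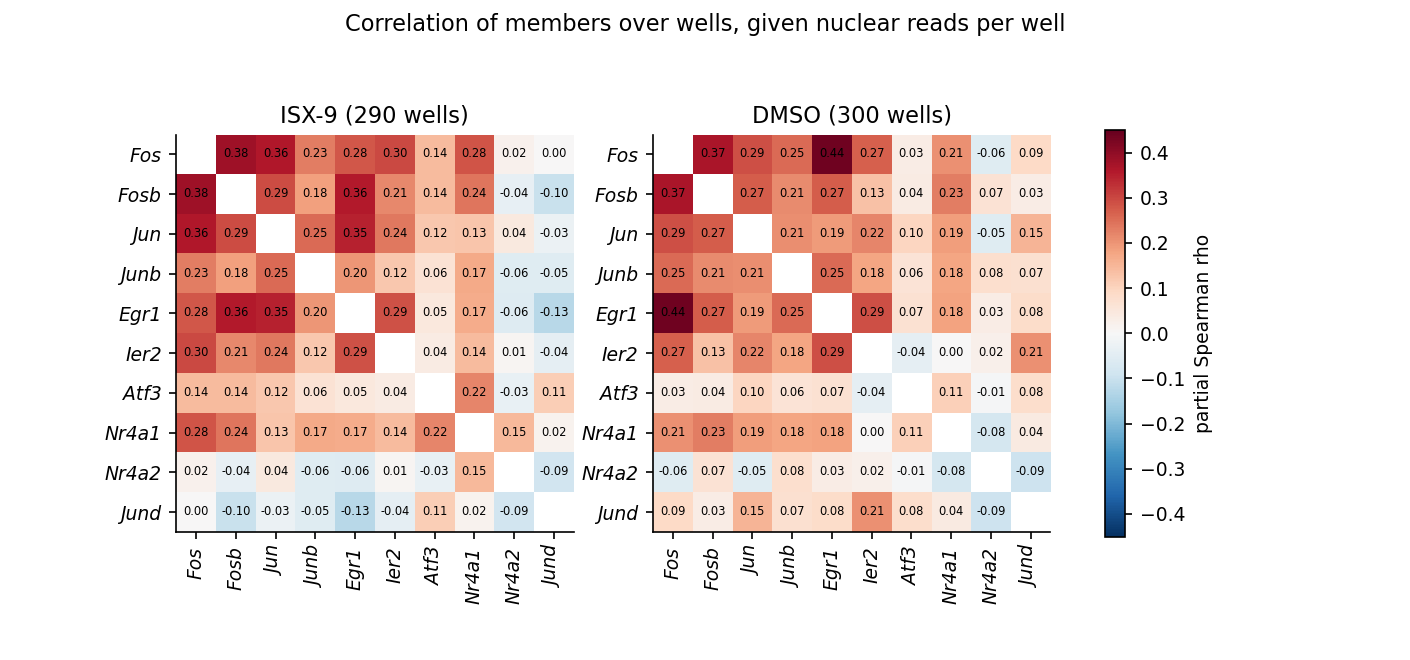
Partial Spearman rho given the nuclear reads of a well for every pair of the 10 genes, across 290 ISX-9 wells and 300 DMSO wells. Fos, Fosb, Jun, Junb, Egr1 and Ier2 form a block of positive values in both plates, Jund is near or below 0 with most genes in the ISX-9 plate, and Nr4a2 is near 0 with most genes in both.

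Set against the summed level of the other 9 genes, Fos had a partial rho of 0.37 in ISX-9 wells and 0.36 in DMSO wells, Jun 0.31 and 0.27, and Ier2 0.30 and 0.28. Nr4a1 varied with them at 0.23 in ISX-9 wells and 0.24 in DMSO wells. Nr4a2 was near 0, at −0.05 and −0.04. Jund was at −0.10 in ISX-9 wells and 0.14 in DMSO wells, and no other member had opposite signs in the 2 plates. With each of the other 6 widely read genes, Jund had a partial rho between −0.13 and 0.003 in ISX-9 wells and between 0.033 and 0.21 in DMSO wells. The difference between the plates was not tested, since each is 1 library.

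The promoter windows of a pair of genes that varied together across wells, Fos and Fosb, and of the Nr4a pair, whose partial rho was 0.15 in ISX-9 wells and −0.08 in DMSO wells, are shown here as the 250 bases upstream of the start of the RefSeq gene, 5′ to 3′ on the gene's strand, in build GRCm38.p6. Capitals mark TGACG or its reverse complement CGTCA, the core bound by CREB and ATF proteins, and GCGNGGGCG or its reverse complement, the site bound by EGR proteins. The 2 motifs do not overlap in these windows.
Fos, chr12:85473640-85473889, plus strand: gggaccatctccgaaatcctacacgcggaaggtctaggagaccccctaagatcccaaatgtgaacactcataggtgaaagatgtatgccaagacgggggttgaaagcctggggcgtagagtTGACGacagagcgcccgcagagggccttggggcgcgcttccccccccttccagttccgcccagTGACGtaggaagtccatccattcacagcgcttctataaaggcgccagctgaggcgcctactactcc
Fosb, chr7:19310046-19310295, minus strand: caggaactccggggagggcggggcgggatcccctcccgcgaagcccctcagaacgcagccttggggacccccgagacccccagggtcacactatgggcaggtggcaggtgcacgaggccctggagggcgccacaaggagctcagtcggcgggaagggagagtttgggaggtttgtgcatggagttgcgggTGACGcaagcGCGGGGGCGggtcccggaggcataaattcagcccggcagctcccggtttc
Nr4a1, chr15:101266596-101266845, plus strand: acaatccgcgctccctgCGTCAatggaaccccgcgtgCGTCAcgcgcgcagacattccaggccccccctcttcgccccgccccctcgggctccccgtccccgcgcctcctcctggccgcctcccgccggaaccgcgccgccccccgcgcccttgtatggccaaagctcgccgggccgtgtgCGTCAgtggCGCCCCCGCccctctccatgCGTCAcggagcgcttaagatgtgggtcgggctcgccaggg
Nr4a2, chr2:57124004-57124253, minus strand: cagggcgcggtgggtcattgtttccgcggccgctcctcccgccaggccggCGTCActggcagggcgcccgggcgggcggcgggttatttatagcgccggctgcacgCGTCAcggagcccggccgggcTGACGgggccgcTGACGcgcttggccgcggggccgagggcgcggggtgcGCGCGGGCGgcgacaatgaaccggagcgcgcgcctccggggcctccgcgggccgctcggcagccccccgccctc
Of the 10 genes, 8 had a window in the RefSeq table. TGACG on either strand lay in 6 of these 8 windows, beside 17.8% of all 32851 windows of the same length. Fos held it from 129 to 125 and from 66 to 62 bases upstream of the start, and Fosb from 60 to 56 bases upstream. Nr4a1 and Nr4a2 each held 4 matches. The EGR motif lay in 3 of 8 windows, those of Fosb, Nr4a1 and Nr4a2, beside 4.7% of all windows. The share of G and C was 58.4% in Fos, 68.8% in Fosb, 74.4% in Nr4a1 and 80% in Nr4a2, above the median of 52.4% over all windows, while the Jund window was below it at 47.6%. Both motifs hold CG. The full cyclic AMP response element TGACGTCA, the AP-1 site TGANTCA, the NR4A element AAAGGTCA and the serum response element (CArG box) had no match in these 8 windows on either strand, where 1.55%, 6.75%, 1.34% and 1.47% of all windows held them. Sites farther than 250 bases upstream lay outside these windows, and Egr1 and Ier2 had no window. A match is a run of letters, and binding was not measured.

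Among non-members, the genes whose level was most like the summed level of the 10 were ranked by the smaller partial rho of the 2 plates, over 5665 genes read in 20% or more of the wells of each plate. The first was Atf4, a factor of the integrated stress response, at 0.23 in ISX-9 wells and 0.21 in DMSO wells. The next were Hspa1b, an inducible HSP70 chaperone, at 0.28 and 0.18, and Ppp1r15a, the phosphatase subunit GADD34, at 0.17 and 0.23. Zcchc7, Pabpc1, Tmprss2 and Pabpn1 were also near the top, with values between 0.14 and 0.19 in both plates. Over all 5665 genes the 99th percentile was 0.164 in ISX-9 wells and 0.177 in DMSO wells, so each of these 4 is below that level in 1 of the plates. Atf4 was at 197.8 CPM in ISX-9 wells and 351.4 CPM in DMSO wells.

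The link of the summed level to lineage genes was weak. Wells were split at 200 CPM of a lineage gene, with summed levels of the 10 genes given for wells at or above it and then for wells below it. For Neurog3 in the ISX-9 plate this level was 1181 CPM in 137 wells and 1654 CPM in 153 wells, and in the DMSO plate 1589 CPM in 73 wells and 1607 CPM in 227 wells. Fos followed that split in the ISX-9 plate, with 54.5 CPM (48.1 to 61.5) in wells with Neurog3 and 140.6 CPM (131.9 to 149.6) in the rest. After thinning, Fos was read in 11.7% (6.82 to 18.3) and 21.6% (15.3 to 28.9) of these wells, and the intervals overlap. Egr1 went the other way in the ISX-9 plate, at 138.5 CPM (128.2 to 149.4) with Neurog3 and 109.0 CPM (101.4 to 117.0) in the rest. After thinning, Egr1 was read in 18.2% and 21.6% of these wells. In the DMSO plate Fos was at 119.0 CPM in wells with Neurog3 and 133.5 CPM in the rest.

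Tph1, the enzyme that makes serotonin in enterochromaffin cells, split the pooled levels of the plates in opposite directions. The summed level was 1241 CPM in 95 ISX-9 wells with Tph1 and 1544 CPM in 195 ISX-9 wells below the threshold, and 2050 CPM in 79 DMSO wells with Tph1 and 1460 CPM in 221 DMSO wells below it. As a mean over wells, the ISX-9 levels were nearly equal, at 1934 CPM with Tph1 and 1899 CPM below, and the DMSO levels were 2748 and 1627 CPM. In wells with any Tph1 read, the pooled level was 1435 CPM in the ISX-9 plate and 1630 CPM in the DMSO plate, beside 1461 and 1603 CPM over all wells, so the opposite split depended on the threshold. At 200 CPM, Jun was at 290.7 CPM in ISX-9 wells with Tph1 and 441.6 CPM in the rest, and at 702.9 CPM in DMSO wells with Tph1 and 347.0 CPM in the rest. For Muc2, the main goblet cell mucin, the summed level was 1981 CPM in 65 ISX-9 wells and 1344 CPM in 225 wells below, and 1543 CPM in 136 DMSO wells and 1642 CPM in 164 wells below. In the 65 ISX-9 wells 1 well held 14.1% of the reads. For the proliferation gene Mki67 it was 1337 CPM in 21 ISX-9 wells and 1489 CPM in the rest, and 1255 CPM in 30 DMSO wells and 1675 CPM in the rest. The well medians gave the other order in the ISX-9 plate, at 1759 CPM with Mki67 and 1184 CPM in the rest. Across wells the partial rho between the summed level and each of the 9 lineage measures lay between −0.11 and 0.14 in the ISX-9 plate and between −0.09 and 0.15 in the DMSO plate. Single genes reached larger values. In DMSO wells the partial rho with Tph1 was 0.24 for Nr4a1, 0.22 for Fos and 0.20 for Egr1, but −0.02 for Nr4a2. For Nr4a1 and Neurog3 it was −0.22 in ISX-9 wells and −0.04 in DMSO wells. Nr4a1 was at 12.9 CPM in ISX-9 wells with Neurog3 and 43.6 CPM in the rest.

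**Figure D4:**
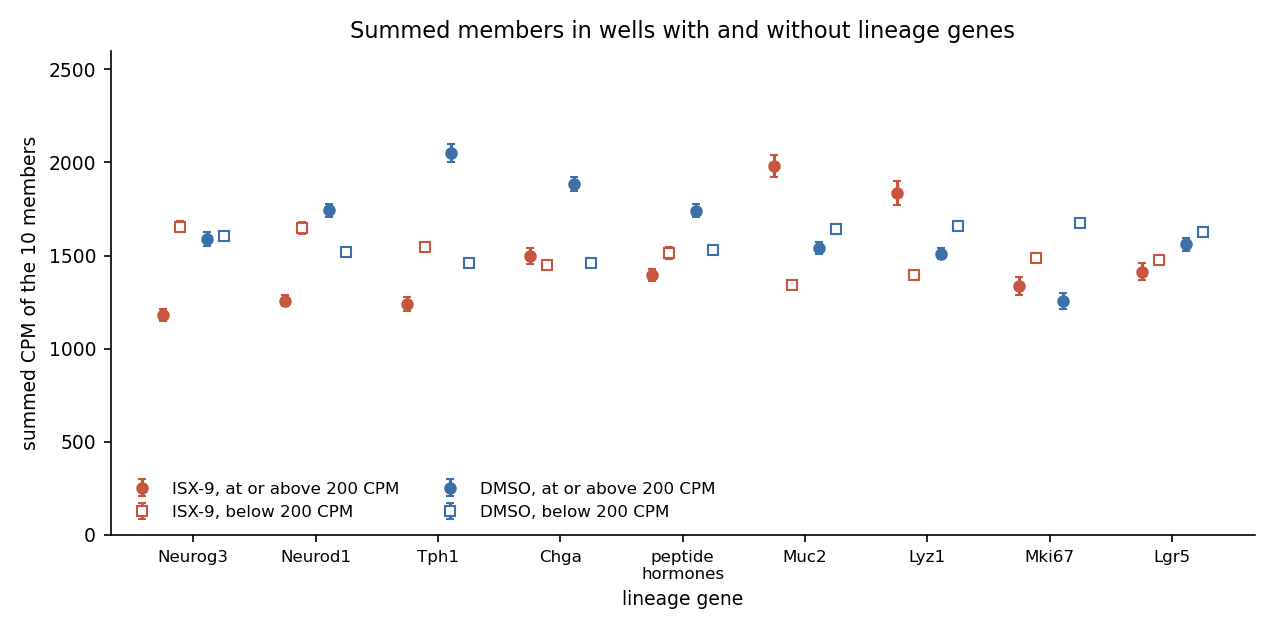
Summed level of the 10 genes in CPM in wells at or above (filled) and below (open) 200 CPM of each lineage gene, with exact 95% Poisson intervals, for the ISX-9 and DMSO plates. Wells with Tph1 lie below the others in the ISX-9 plate, at 1241 and 1544 CPM, and above them in the DMSO plate, at 2050 and 1460 CPM.

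Wells with very high Chga or peptide hormone levels differed more. The thresholds on Chga and on hormones used from here on were chosen after values were seen, so these are descriptions. The threshold of 1000 CPM for Tph1 was not among these. Chga encodes chromogranin A, a protein of secretory granules. Fos was at 916.5 CPM in 10 ISX-9 wells with at least 10000 CPM of Chga and 92.9 CPM in the other 280 wells, and at 432.9 CPM in 23 such DMSO wells and 112.4 CPM in the other 277. Fos was read in 8 of these 10 ISX-9 wells and 18 of these 23 DMSO wells, and after thinning in 7 and 10 of them. In the ISX-9 wells 1 well held 54.5% of the Fos reads, and without it Fos was at 549.2 CPM. Jun was higher in the same wells, at 772.1 CPM in the ISX-9 wells with high Chga and 394.7 CPM in the rest, and 1116 CPM and 393.9 CPM in the DMSO plate. Without the top Jun well the high-Chga wells were at 534.5 CPM in the ISX-9 plate and 827.6 CPM in the DMSO plate.

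Wells rich in peptide hormones gave other values. The summed CPM of Gcg, Cck, Sct, Pyy, Nts, Ghrl, Gip, Gal and Iapp was at least 10000 in 12 ISX-9 wells and 17 DMSO wells. Fos was at 14.9 CPM in these ISX-9 wells and 108.7 CPM in the other ISX-9 wells, and at 63.1 CPM in the DMSO hormone wells and 135.7 CPM in the other DMSO wells. Jun was read in 1 of the 12 ISX-9 wells and 153 of the other 278, and in 9 of the 17 DMSO wells and 162 of the other 283. The median depth was 17374.5 reads in the 12 ISX-9 wells and 59885 reads in the 17 DMSO wells, so the DMSO wells were deeper.

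Of the wells with an Nr4a2 read, 10 of 22 in the ISX-9 plate and 2 of 43 in the DMSO plate also had an Nr4a1 read. In the ISX-9 plate 37 wells had Nr4a1 alone, 12 had Nr4a2 alone, 10 had both and 231 had neither. In the DMSO plate 23 wells had Nr4a1 alone, 41 had Nr4a2 alone, 2 had both and 234 had neither. Wells with both were deep, with a median of 134051 nuclear reads in the ISX-9 plate and 182320 in the DMSO plate, against 17585 and 23691.5 in wells with neither. If the 2 genes were read independently, 3.57 ISX-9 wells and 3.58 DMSO wells would have both. At a level of at least 50 CPM, 1 ISX-9 well and 0 DMSO wells had both, beside 0.80 and 1.81 wells if independent. These counts are too small to show that the 2 genes avoid each other.

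Fos and Fosb were read more often in wells with Nr4a1 alone. Fos was read in 75.7% of the ISX-9 wells and 82.6% of the DMSO wells with Nr4a1 alone, in 33.3% and 48.8% of wells with Nr4a2 alone, and in 36.8% and 50.4% of wells with neither. Fosb was read in 48.6% of the ISX-9 wells and 56.5% of the DMSO wells with Nr4a1 alone, in 8.33% and 36.6% of wells with Nr4a2 alone, and in 17.7% and 20.1% of wells with neither. Not all genes did so: in the DMSO plate Jund was read in 78.3% of wells with Nr4a1 alone, 85.4% with Nr4a2 alone and 80.8% with neither, and Ier2 was at 67.5, 98.3 and 89.3 CPM in these wells. Wells with neither gene were shallower than wells with either, and Nr4a2 wells were deeper than Nr4a1 wells, at a median of 56057 and 37003 reads in the ISX-9 plate and 44957 and 32510 reads in the DMSO plate.

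Wells with high peptide hormones often held Nr4a2 reads in the DMSO plate, and few of them held Nr4a1 reads. At 10000 CPM or more of Cck or 1000 CPM of Gip, Gcg or Ghrl, Nr4a1 was read in 4 of 13 ISX-9 wells, at 65.1 CPM. It was read in 2 of 27 such DMSO wells, at 34.2 CPM. In the other 277 ISX-9 wells Nr4a1 was at 30.0 CPM, and in the other 273 DMSO wells at 13.7 CPM. Its pooled level was therefore higher in the hormone wells of both plates. Nr4a2 was read in 12 of the 17 DMSO wells rich in peptide hormones, 70.6% (44.0 to 89.7), at 188.5 CPM, and in 31 of the other 283 wells, at 12.4 CPM. These 17 wells held 57.8% of the Nr4a2 reads of the plate. By hormone, Nr4a2 was read in 8 of 13 DMSO wells with at least 10000 CPM of Cck (cholecystokinin), and, at 1000 CPM, in 6 of 12 with Gcg (proglucagon), 8 of 14 with Ghrl (ghrelin) and 4 of 4 with Gip (gastric inhibitory polypeptide). Some wells were counted under more than 1 hormone. After thinning, Nr4a2 was read in 3 of the 17 wells and 12 of the other 283. Nr4a1 was at 47.5 CPM in the 17 wells and 13.2 CPM in the other 283, with all of its reads in the 17 wells from 1 well. In 61 DMSO wells with at least 1000 CPM of peptide hormones, Nr4a1 was at 44.6 CPM and Nr4a2 at 90.7 CPM. In the other 239 they were at 9.44 and 12.2 CPM, so both pooled levels were higher beside peptide hormones at that threshold. For Nr4a1 this rested largely on wells with 58 and 32 of its reads, which also had 7994 and 2014 CPM of Tph1. Across DMSO wells the partial rho with peptide hormones was 0.10 for Nr4a1 and 0.16 for Nr4a2.

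In the ISX-9 plate Nr4a2 had no read in the 12 wells rich in peptide hormones, where the exact Clopper-Pearson upper bound is 26.5% for wells with a read at this depth. It had no read in 10 wells with high Cck, and none in 5 with Gcg at 1000 CPM, was read in 1 of 5 with Ghrl, and no ISX-9 well reached 1000 CPM of Gip. These wells were fewer and shallower than the DMSO ones. The lower Nr4a2 level in the ISX-9 plate was not confined to them. Outside wells with at least 10000 CPM of Cck or 1000 CPM of Gip, Gcg or Ghrl, Nr4a2 was at 5.77 CPM in 277 ISX-9 wells. It was at 13.3 CPM in 273 such DMSO wells, a log2 ratio of −0.76. Inside that wider set of hormone wells it was at 21.7 CPM in 13 ISX-9 wells, with all reads from 1 well. In the 27 DMSO wells of that set it was at 130.6 CPM.

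The pair differed over Tph1 in the DMSO plate. In the DMSO plate Nr4a1 was at 76.6 CPM in 60 wells with at least 1000 CPM of Tph1 and 3.13 CPM in the other 240 wells, and the Tph1 wells held 84.0% of its reads. It was at 57.1 CPM in 79 DMSO wells with at least 200 CPM of Tph1 and 27.6 CPM in 132 with any Tph1 read, and at 3.04 and 1.09 CPM in the wells outside them. Nr4a2 was at 5.77 CPM in the 60 DMSO wells and 31.5 CPM in the others, and the levels were nearly equal when wells were split by any Tph1 read, at 25.3 and 29.2 CPM. Nr4a1 was read in 12 of the 60 DMSO wells, so most wells with Tph1 had none, and without the top well it was at 55.2 CPM. In the ISX-9 plate Nr4a1 was at 35.5 CPM in 59 wells with Tph1 and 30.3 CPM in the other 231, and read in 12 and 35 of them. At 200 CPM of Tph1, Nr4a1 was at 27.0 CPM in 95 ISX-9 wells and 32.6 CPM in the other 195. As a mean over wells the order was reversed, at 64.6 and 23.0 CPM, with Nr4a1 reads in 17.9% and 15.4% of wells. The direction for Nr4a1 in the ISX-9 plate therefore depended on how wells were weighted. Nr4a2 was at 11.5 and 4.31 CPM in these ISX-9 wells, so it was not lower with Tph1 as in the DMSO plate. Across ISX-9 wells the partial rho with Tph1 was 0.13 for Nr4a1 and 0.07 for Nr4a2. The 3 DMSO wells with most Nr4a1 reads each had more than 10000 CPM of Chga, at 13810, 26737 and 23835 CPM, and the first of them also had 12699 CPM of peptide hormones. The 3 ISX-9 wells with most Nr4a1 reads had at most 359.2 CPM of Chga. They were deep, at 164254, 205959 and 326339 nuclear reads, and held Nr4a1 at 243.5, 150.5 and 67.4 CPM. The highest Nr4a1 level in an ISX-9 well was 1850 CPM, so these were not the wells highest in CPM. As a mean over ISX-9 wells, Nr4a1 was at 58.0 CPM with at least 200 CPM of Chga and 23.8 CPM below. It was read in 13.8% and 17.7% of these wells. Nr4a1 was also read in 4 of 10 ISX-9 wells with high Cck and 1 of 13 DMSO wells with high Cck.

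**Figure D5:**
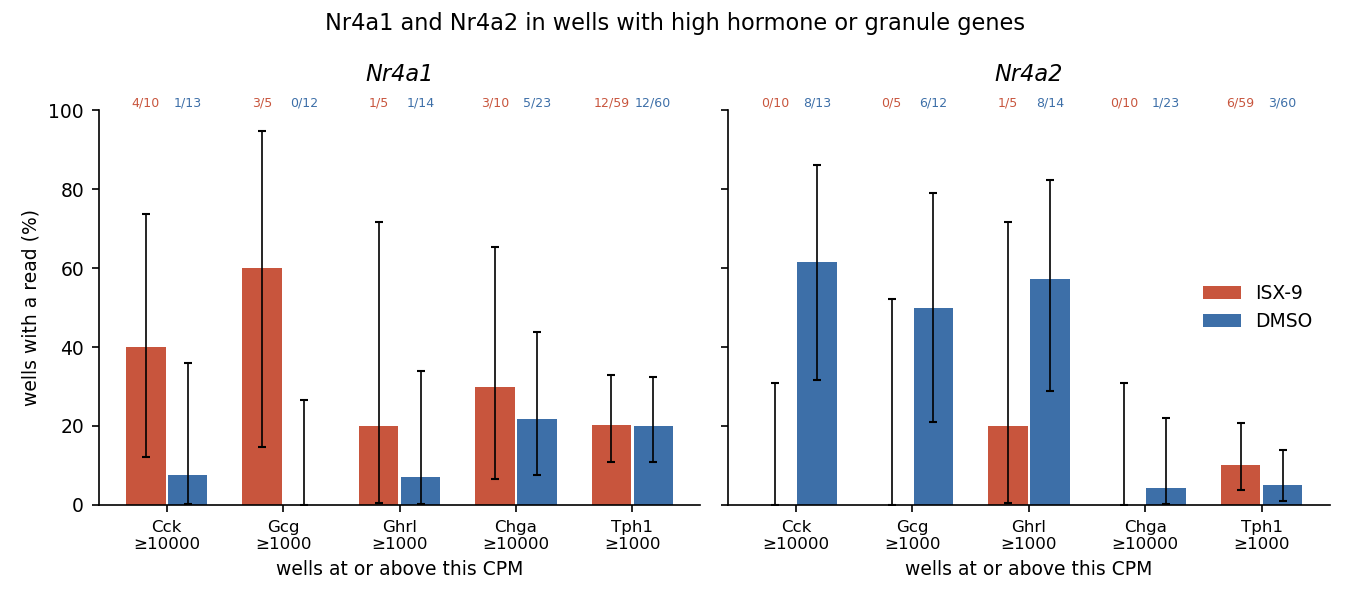
Share of wells in percent with a read of Nr4a1 or Nr4a2, with exact 95% Clopper-Pearson intervals and the number of wells, for each plate. Wells are grouped by gene, at 10000 CPM or more of Cck or Chga and 1000 CPM or more of Gcg, Ghrl or Tph1. Nr4a2 is read in most of the 13 DMSO wells with high Cck, while the 10 ISX-9 wells with high Cck have no Nr4a2 read.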

How the data were processed

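Gene levels were read from tables of raw counts that the authors deposited, 1 per plate, with genes in rows and 384 wells in columns. Per the submitters' processing notes, BWA was used, and the notes name a human build, while the rows carry mouse symbols with a chromosome; version, gene models, strand setting and the rule for shared reads are not given in the sources used here. The deposited counts are reads and not molecules. A gene not listed for a plate was set to 0 there. Spike-in and mitochondrial rows were left out of totals, and Rn45s stayed in. Wells with at least 2000 nuclear reads and 500 genes were kept. Doublets were not called.

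Reads summed over kept wells were scaled to CPM with exact Poisson 95% intervals, and shares of wells have exact Clopper-Pearson 95% intervals. Plates were set against each other by the log2 ratio of (CPM + 5), which understates differences of low genes. The limit for a count of 0 is 3 counts. Wells were also thinned to 2000 reads. Wells of 1 plate share a library. Promoter windows came from RefSeq (GRCm38.p6), matched by symbol. The members and lists were chosen with earlier results of these data known. Named genes are the 10 members, the 8 non-members with the highest smaller partial rho (1 of them is not reported here), the lineage genes, list genes at least 2-fold apart and the 3 highest chaperones; individual hormones and Hspb1 were named after their values were seen. Steps were tested on simulated data. Python 3.11.15, numpy 2.4.6, scipy 1.17.1 and pandas 2.3.3 were used.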

Additional observations from a re-analysis of the deposited data

Results flagged for a closer look

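Wells left out for too few reads or genes also held reads of the 10 genes, above the limit that 3 counts allow. In the 94 ISX-9 wells left out, the summed level was 1496 CPM from 166 reads, with a limit of 27.0 CPM, beside 1461 CPM in the kept ISX-9 wells. In the 84 DMSO wells left out it was 1014 CPM from 162 reads, with a limit of 18.8 CPM, beside 1603 CPM in the kept DMSO wells. Jund had the most reads among them, with 78 reads in the ISX-9 wells and 84 reads in the DMSO wells.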

How the results depend on the processing

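No paired analysis was possible because each treatment has 1 plate, and no replicate could be left out. The median log2 ratio of the 10 genes, −0.16, was −0.32 with median-of-ratios scaling, −0.40 with spike-in scaling and −0.030 as a mean of the wells' CPM. These 2 scalings moved the median of all genes by −0.15 and −0.23, and the median of the 10 genes minus that of all genes was −0.30 as reported and −0.32 under both. The count of genes at least 2-fold apart, 1, was 2 in thinned wells, with a pseudocount of 1 and with spike-in scaling. In each of these Atf3 joined Nr4a2. The recounts did not apply the minimum of 10 CPM, which 9 of the 10 genes passed in thinned wells. The median rho of member pairs before correction for depth was 0.27 in ISX-9 wells and 0.30 in DMSO wells, and it was 0.14 and 0.12 in thinned wells, which hold few reads per gene. Of 32 recomputed values of these main results 24 moved little, and none changed direction. Of 110 recomputed log2 ratios of single genes, 73 moved little. Fos, Fosb, Jun, Atf3, Nr4a1 and Nr4a2 had the same sign in all 11 settings, Jund in 10, Ier2 in 9, Egr1 in 7 and Junb in 6. With the threshold on summed peptide hormones at 1000 CPM, Nr4a2 was at 13.1 CPM in ISX-9 wells and 90.7 CPM in DMSO wells, and at 20000 CPM it was at 0 and 261.9 CPM; these 2 thresholds were chosen after seeing the data. Atf3, Nr4a1 and Nr4a2 were read in fewer than 20% of wells of either plate.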
